A study of Mus musculus with 8 samples.

Results

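The tumour suppressor p53 is a transcription factor that DNA damage and other stresses stabilise. It switches on genes that stop the cell cycle, repair DNA, temper metabolism or start cell death, and it also raises Mdm2, whose product marks p53 for degradation and so closes a feedback loop. In carcinoma cells this pathway is often altered, and the RNA levels of its direct targets are a common readout of its activity. Described here are direct p53 targets on the arrays of a bone stromal and a breast carcinoma line. Of 10 genes listed, 6 had a probe set that the platform annotation gives to them alone and were measured, among 19938 such genes in all: Mdm2, Ccng1, Trp53inp1, Phlda3, Zmat3 and Sesn2. Each of the 6 had 1 probe set. The annotation joins Cdkn1a to a second symbol on a shared probe set, and Trp53, Bax and Gdf15 were not analysed here.

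RNA of 2 mouse lines was measured on 8 Affymetrix MoGene ST arrays, which form 4 groups of 2: the stromal line after co-culture (MBA-15 co-culture) or by its label alone (MBA-15 alone), and the carcinoma line grown alone (DA3 alone) or after co-culture (DA3 co-culture). MBA-15 is a stromal line of pre-osteoblastic character, and DA3 comes from a mammary adenocarcinoma. DA3 cells were seeded over a layer of MBA-15 cells and, after 24 h per the sample descriptions, drawn off by magnetic selection for EpCAM, an epithelial surface protein, while the unbound cells make up the MBA-15 fraction. Each line grown by itself was the control. The sources used here do not give the p53 genotype of either line. The labels do not say whether both arrays of a group are of separate cultures, so p-values measure the spread between these arrays, which may be technical.

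The markers went against the label of 1 group. The 19 measured epithelial markers had array means of 4.74 to 4.82 in MBA-15 co-culture, 8.52 to 8.61 in DA3 alone and 8.12 to 8.34 in DA3 co-culture, but of 7.33 to 7.87 on the arrays labelled MBA-15 alone (log2 levels). Epcam was at 8.45 and 9.25 there, against 5.58 and 5.19 in MBA-15 co-culture. The descriptions of all 4 control arrays hold the word mix, without saying what was mixed. The 19 stromal markers ran from 7.83 to 8.13 in MBA-15 co-culture, from 7.64 to 7.66 on the arrays labelled MBA-15 alone, from 5.29 to 5.41 in DA3 alone and from 5.80 to 6.30 in DA3 co-culture. The 5 measured osteoblast markers averaged 4.18 to 4.38 in MBA-15 co-culture, below the lowest array median of 4.479, with Alpl at 5.05 on 1 array. Of the markers of other cells, 5 of 7 leukocyte and 6 of 6 endothelial genes lay below the array median on every array. The differences between the lines given below are taken from the other 3 groups. Their p-values use the spread over all 8 arrays, and the count of arrays that do not overlap includes the labelled ones.

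Promoter sequence from RefSeq (GRCm38.p6) was at hand for 4 of the 6 genes, and the 250 bases before the start were searched on both strands for the p53 decamer, the unit of which a p53 response element holds 2 copies. The decamer matched once in Mdm2 and once in Ccng1 and did not match in Phlda3 or Sesn2. Of all 32851 promoter windows of this length 7.1% hold a match, and 0.06% hold 2 matches within 13 bases of each other, which no window of the 4 genes did. The 2 windows that matched are shown in part. Capitals mark the match, which lies 176 bases before the start in Mdm2 (chr10:117710890-117710989, minus strand) and 175 bases before it in Ccng1 (chr11:40755417-40755516, minus strand):
Mdm2: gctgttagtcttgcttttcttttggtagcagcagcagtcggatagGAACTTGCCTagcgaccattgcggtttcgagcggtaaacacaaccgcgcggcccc
Ccng1: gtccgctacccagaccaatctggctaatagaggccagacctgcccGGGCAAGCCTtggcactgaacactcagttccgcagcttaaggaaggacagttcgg
A match describes the letters of the window and is not a measured site. In Ccng1 the letters directly before the match, agacctgccc, come close to a second copy without matching, so the search passed them over. In Mdm2 the known p53 elements lie in the first intron, which this window does not cover.

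All 6 p53 targets were higher on MBA-15 arrays than on DA3 arrays. For each of them the lowest of the 4 arrays labelled MBA-15 lay above the highest of the 4 arrays labelled DA3, which held for 10.0% of all genes in that direction. With the arrays labelled MBA-15 alone left out it also held for all 6, which follows from the first count and is no further test. The range between the highest and the lowest group mean was 1.14 to 2.61 log2 units, against a median of 0.43 and a 90th percentile of 1.35 over all genes. These genes were picked with earlier results of these arrays known, so the counts describe them and no more.

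**Figure D1:**
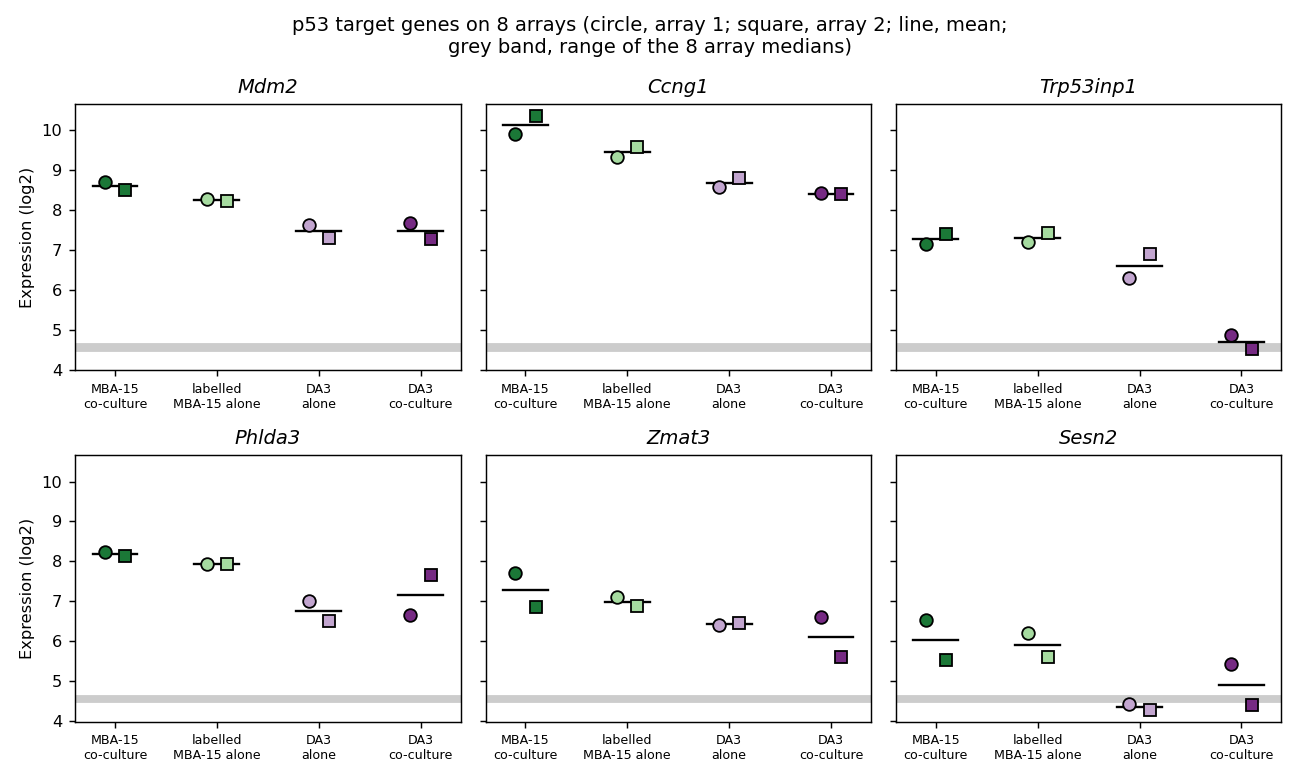
Log2 expression (vertical axis) of the 6 measured p53 targets in the 4 groups (horizontal axis), with circles for array 1, squares for array 2, a line at the group mean and a grey band over the range of array medians. Every MBA-15 array lies above every DA3 array in each panel, and Trp53inp1 in DA3 co-culture drops to 4.88 and 4.52.

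Among the genes that hold p53 itself in check, Mdm2, the ubiquitin ligase of the feedback loop, was at 8.71 and 8.51 in MBA-15 co-culture, 8.28 and 8.23 for the group labelled MBA-15 alone, 7.67 and 7.27 in DA3 co-culture and 7.63 and 7.31 in DA3 alone (log2 levels of arrays 1 and 2). The MBA-15 groups do not overlap with each other or with DA3, and the 2 DA3 groups do overlap. Ccng1 encodes cyclin G1, which brings a phosphatase to Mdm2 and so takes part in the same loop. Its levels were 9.90 and 10.36 in MBA-15 co-culture, 9.34 and 9.58 for the group labelled MBA-15 alone, 8.42 and 8.39 in DA3 co-culture and 8.58 and 8.79 in DA3 alone. No neighbouring groups overlap for Ccng1, and DA3 co-culture is the lowest.

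Trp53inp1 encodes a nuclear and autophagy protein that helps p53 to start cell death. It was at 7.14 and 7.40 in MBA-15 co-culture and at 7.19 and 7.42 in the group labelled MBA-15 alone, and these overlap. In DA3 co-culture it was at 4.88 and 4.52, against 6.30 and 6.90 in DA3 alone. The DA3 co-culture arrays are the lowest by far, and array 2 of that group is the only one of the 8 on which Trp53inp1 lay below the array median. Phlda3 encodes a pleckstrin-homology protein that keeps the kinase Akt from the membrane. It was at 8.23 and 8.13 in MBA-15 co-culture, 7.94 and 7.93 for the group labelled MBA-15 alone, 6.67 and 7.67 in DA3 co-culture and 7.01 and 6.52 in DA3 alone. Its DA3 groups overlap, and the 2 DA3 co-culture arrays lie 1.00 log2 units apart.

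Zmat3, a zinc-finger RNA-binding protein, had levels of 7.71 and 6.87 in MBA-15 co-culture, 7.10 and 6.89 for the group labelled MBA-15 alone, 6.62 and 5.60 in DA3 co-culture and 6.40 and 6.46 in DA3 alone. Each co-culture group overlaps with its own control. Sesn2 encodes sestrin 2, which restrains the growth kinase mTORC1 and answers to the stress factor ATF4 as well as to p53. Its levels were 6.53 and 5.54 in MBA-15 co-culture, 6.21 and 5.60 for the group labelled MBA-15 alone, 5.42 and 4.40 in DA3 co-culture and 4.43 and 4.29 in DA3 alone. Sesn2 lay above the array median on 5 of 8 arrays, and both DA3 alone arrays and DA3 co-culture array 2 were below it, so its difference between the lines is at best a lower bound. The arrays of DA3 co-culture differed from each other most, by a median of 0.70 log2 units over the 6 genes, against 0.36, 0.22 and 0.27 in MBA-15 co-culture, labelled MBA-15 alone and DA3 alone. The sample descriptions give arrays 1 and 2 of DA3 co-culture the assay numbers 3 and 5. In each other group arrays 1 and 2 have the assay numbers 4 and 3, in that order.

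MBA-15 co-culture against DA3 alone asks how the lines differ where their markers separate best. These groups also differ in co-culture, which cannot be told apart from the line in this comparison. Ccng1 was higher in MBA-15 co-culture by 1.45 ± 0.19 log2 units (SE, 2 arrays a group, limma with Benjamini-Hochberg adjustment, adjusted p = 0.00428). Mdm2 was higher by 1.14 ± 0.19 (limma, adjusted p = 0.0104) and Phlda3 by 1.41 ± 0.33 (limma, adjusted p = 0.0366). These are folds of 2.73, 2.21 and 2.66. Thus 3 of 6 genes passed as higher and 0 as lower, while 6.08% of all genes passed as higher and 6.47% as lower. The number of all genes called fell from 2503 to 995 without DA3 alone array 1 and to 1068 without array 2. The median difference was 1.28 over the 6 genes and 0.00 over all genes. Sesn2 at 1.67 ± 0.44 (limma, adjusted p = 0.056), Zmat3 at 0.86 ± 0.38 (limma, adjusted p = 0.238) and Trp53inp1 at 0.67 ± 0.24 (limma, adjusted p = 0.14) did not pass. Within assay 3, a number in the sample descriptions whose meaning is not given, the differences of Ccng1, Mdm2 and Phlda3 were 1.58, 1.21 and 1.61, and within assay 4 they were 1.32, 1.08 and 1.21. For Sesn2 they were 1.25 and 2.10, for Zmat3 0.42 and 1.31, and for Trp53inp1 0.50 and 0.84.

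The call of Ccng1 held whichever array was left out. That of Mdm2 was lost without DA3 alone array 2 (0.98, limma, adjusted p = 0.0806). That of Phlda3 was lost without either MBA-15 co-culture array (1.36 and 1.46, limma, adjusted p = 0.116 and 0.118), either array labelled MBA-15 alone (1.41, limma, adjusted p = 0.0686 for each) or either DA3 alone array (1.66 and 1.16, limma, adjusted p = 0.0933 and 0.21), and with both arrays labelled MBA-15 alone left out (limma, adjusted p = 0.0686). Sesn2 passed without MBA-15 co-culture array 2 (2.17, limma, adjusted p = 0.0454) and without either DA3 co-culture array (1.67, limma, adjusted p = 0.0334 for each), and in 9 of 17 alternatives in all. Over these omissions the number of genes called ran from 1 to 4. With the assay number as a block, 5 of the 6 passed, all but Zmat3.

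The 2 fractions of the co-culture were compared as well. This comparison shares its MBA-15 co-culture arrays with the one before. Trp53inp1 had the largest difference, higher in the MBA-15 fraction by 2.57 ± 0.24 log2 units, a fold of 5.93 (limma, adjusted p = 0.00151). Ccng1 was higher by 1.73 ± 0.19 (limma, adjusted p = 0.00268) and Mdm2 by 1.14 ± 0.19 (limma, adjusted p = 0.0114). So 3 of 6 passed as higher, beside 8.28% of all genes, and 0 as lower, beside 4.48%. Phlda3 at 1.01 ± 0.33, Zmat3 at 1.19 ± 0.38 and Sesn2 at 1.12 ± 0.44 did not pass (limma, adjusted p = 0.101, 0.1 and 0.158). Assay 3 is the only one that holds both fractions, through array 1 of DA3 co-culture. A fit with the assay number as a block therefore rests on that array for this group. The differences within assay 3 were 2.52 for Trp53inp1, 1.95 for Ccng1, 0.84 for Mdm2, 1.46 for Phlda3, 0.26 for Zmat3 and 0.12 for Sesn2. Mdm2 lost its call without MBA-15 co-culture array 1 (1.04, limma, adjusted p = 0.0504), and when the assay number was a block (0.84, limma, adjusted p = 0.057) or only the 2 groups were fitted (1.14, limma, adjusted p = 0.0599). Zmat3 passed without DA3 co-culture array 1 (1.70, limma, adjusted p = 0.034) and Phlda3 without DA3 co-culture array 2 (1.51, limma, adjusted p = 0.0172) or with the assay block (1.41, limma, adjusted p = 0.0279). Sesn2 stayed below the threshold with any 1 array left out but passed with the replicate number as a block (1.12, limma, adjusted p = 0.0395).

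**Figure D2:**
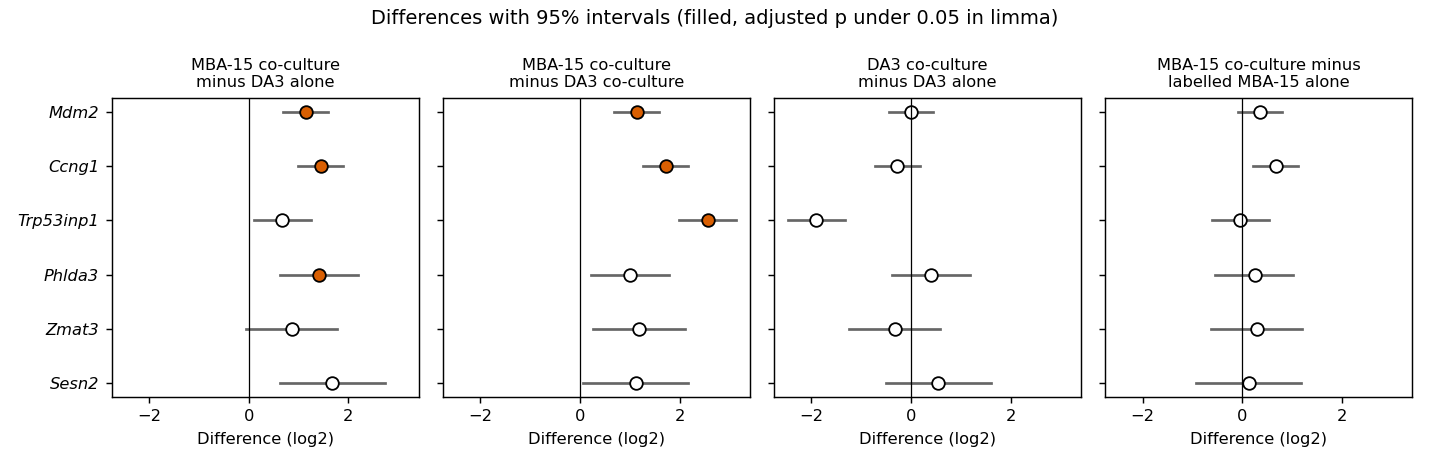
Differences in log2 expression (horizontal axis) of the 6 p53 targets (rows) in 4 comparisons, with 95% intervals from limma; filled points have an adjusted p under 0.05. The intervals of the comparison of MBA-15 co-culture with DA3 alone lie above 0 for all but Zmat3 (-0.06 to 1.78), and in DA3 co-culture against DA3 alone only that of Trp53inp1 (-2.47 to -1.32) lies away from 0.

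DA3 co-culture against DA3 alone asks what growth on stromal cells changes in the carcinoma line. Of the 6 genes 0 passed in limma, where 0.0401% of all genes did, and 1 of 6 had an unadjusted p under 0.05, where 14.9% of all genes did. That gene was Trp53inp1, whose mean was 6.60 ± 0.42 in DA3 alone and 4.70 ± 0.25 in DA3 co-culture (SD, n = 2 arrays). The difference was -1.90 ± 0.24 log2 units, a fold of 3.72, with an interval of -2.47 to -1.32 (limma, adjusted p = 0.0796). Both co-culture arrays lie below both control arrays, and 22.4% of all genes were lower without overlap in the same way. Within assay 3, which alone holds both groups, it was -2.02. The lower level is near the array median, so the difference may be a lower bound. It passed with dim genes left out (limma, adjusted p = 0.0323) and with a variance prior that follows intensity (limma, adjusted p = 0.0198), and over all settings tried the adjusted p in limma ran from 0.0198 to 0.534. In the same comparison 16 of 19 stromal markers had a higher value, with a median of 0.57, and 0 passed. Their part in the difference of Trp53inp1 was not tested.

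The other 5 genes did not pass in DA3 co-culture, and each of their intervals holds 0. Mdm2 differed by 0.00 ± 0.19 log2 units, with an interval of -0.45 to 0.45. Ccng1 differed by -0.28 ± 0.19 (interval -0.73 to 0.18), with both co-culture arrays below both controls. Zmat3 was at -0.32 ± 0.38 (interval -1.24 to 0.59), a value that turned to 0.35 with the assay number as a block and to 0.02 after quantile normalization. Phlda3 was at 0.40 ± 0.33 (interval -0.38 to 1.19) and Sesn2 at 0.55 ± 0.44 (interval -0.50 to 1.61). Without DA3 co-culture array 2, Phlda3 was at -0.10 and Zmat3 at 0.19, and without array 1 Mdm2 was at -0.20, so the sign of these 3 rests on single arrays. Sesn2 ran from 0.04 to 1.06 over the omissions of 1 array.

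MBA-15 co-culture was set against its labelled control to see what carcinoma cells change in the stromal line, and the answer is limited by the epithelial RNA on the labelled arrays. Of the 6 genes 0 passed in limma, where 0.848% of all genes did, and 1, Ccng1, had an unadjusted p under 0.05, as 9.80% of all genes did. Ccng1 was at 0.67 ± 0.19 log2 units (limma, adjusted p = 0.259), Mdm2 at 0.36 ± 0.19 (limma, adjusted p = 0.637), Zmat3 at 0.30 ± 0.38, Phlda3 at 0.25 ± 0.33, Sesn2 at 0.13 ± 0.44 and Trp53inp1 at -0.04 ± 0.24. For 3 of the 6 genes, Ccng1, Mdm2 and Phlda3, both co-culture arrays lay above both controls, as for 22.3% of all genes. Beside these, 19 of 19 epithelial markers had a lower value in MBA-15 co-culture, 15 of them past the threshold, with a median of -3.05. Of these 15 calls 3 (Krt7, Krt18 and Cldn7) held when array 2 of MBA-15 co-culture was left out, and 9 held when array 2 of the labelled control was. On a linear scale with the MBA-15 co-culture mean at 0% and the DA3 alone mean at 100%, the epithelial markers stood at a median of 35.8% on array 1 and 58.5% on array 2 of the labelled arrays. Mdm2 stood at 37.9% and 43.5% on that scale, Ccng1 at 67.6% and 51.4%, Phlda3 at 24.9% and 25.8%, and Zmat3 at 33.8% and 57.8%. Trp53inp1 stood at 15.2% and -30.2%, the latter beyond the MBA-15 co-culture end, and Sesn2 at -9.6% and 42.6%. The part of the DA3 RNA in these differences was not tested.

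The changes with co-culture in the 2 lines were also compared with each other. Of the 6 genes 0 passed this test in limma, where 0.0602% of all genes did, and Trp53inp1 and Ccng1 had an unadjusted p under 0.05, as 6.32% of all genes did. The DA3 change of Trp53inp1 was lower than its MBA-15 change by a difference of -1.86 ± 0.34 log2 units (limma, adjusted p = 0.22). For Ccng1 the difference was -0.95 ± 0.27 (limma, adjusted p = 0.526), with both DA3 co-culture arrays below their controls and both MBA-15 co-culture arrays above theirs. Mdm2 at -0.36 ± 0.27, Zmat3 at -0.62 ± 0.54, Phlda3 at 0.16 ± 0.46 and Sesn2 at 0.43 ± 0.62 did not pass (limma, adjusted p = 0.999 for each). The test uses the arrays labelled MBA-15 alone, with the limit given for them.

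Trp53inp1 and Ccng1 had the widest ranges of group means, 2.61 and 1.73 log2 units. The named genes whose levels ran most like those of Trp53inp1 over the 8 arrays were Ankra2, Tnfrsf1b and Zranb3 (Pearson r = 0.993, 0.988 and 0.984), with ranges of 0.87, 2.12 and 1.62. Tnfrsf1b, a receptor for tumour necrosis factor, had group means of 7.78 in MBA-15 co-culture, 7.55 on the arrays labelled MBA-15 alone, 7.09 in DA3 alone and 5.67 in DA3 co-culture. Most like Ccng1 were Vps8, Zfp449 and Zfp825 (r = 0.994, 0.991 and 0.988). The 8 arrays fall into 2 lines, so these values mostly describe the order of the groups.

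Other known p53 targets did not share one direction between the lines. Of 30 further targets measured, 7 were higher and 5 lower in MBA-15 co-culture than in DA3 alone, beside 6.08% and 6.47% of all genes. The other 18 did not pass, and the median was 0.19, against 0.00 over all genes. Among the 11 genes of cell death, Perp, which encodes a membrane protein of desmosomes, was lower by 2.90 ± 0.19 log2 units (limma, adjusted p = 0.000346). Pmaip1, the BH3-only protein Noxa, was lower at -2.11 ± 0.22 (limma, adjusted p = 0.00185), and the receptor gene Eda2r was higher by 2.66 ± 0.28 (limma, adjusted p = 0.00169). Perp and Pmaip1 were below the lowest array median in MBA-15 co-culture, and Eda2r was in DA3 alone, so these are at best lower bounds. Apaf1, the core of the apoptosome, was higher (1.03) and Ei24 lower (-0.73), and the other 6 of this list did not pass.

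Of 6 growth arrest genes, Sfn, the epithelial protein stratifin, was lower in MBA-15 co-culture than in DA3 alone by 2.50 ± 0.34 log2 units (limma, adjusted p = 0.00515), and the kinase gene Plk2 was higher by 1.03 ± 0.24 (limma, adjusted p = 0.0397). Of 13 genes of repair and metabolism, the adenylate kinase gene Ak1 (2.53), the autophagy gene Dram1 (1.78), the epoxide hydrolase gene Ephx1 (1.53) and the DNA polymerase gene Polk (0.94) were higher and the damage sensor gene Ddb2 (-1.25) was lower. Calls of 7 of these 12 genes (Perp, Pmaip1, Eda2r, Sfn, Ak1, Dram1 and Ephx1) held with any 1 array left out. The others were lost at least once. Apaf1 and Ddb2 lost theirs without MBA-15 co-culture array 2 (0.80 and -1.10) or DA3 alone array 1 (0.95 and -1.34) or 2 (1.11 and -1.17), and Polk without DA3 alone array 2 (0.90). Plk2 lost its call without MBA-15 co-culture array 1 (0.79), DA3 alone array 1 or 2 (1.25 and 0.81) or either labelled MBA-15 control (1.03). Ei24 lost it without any 1 of the 6 arrays outside DA3 co-culture (-0.89 to -0.58).

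**Figure D3:**
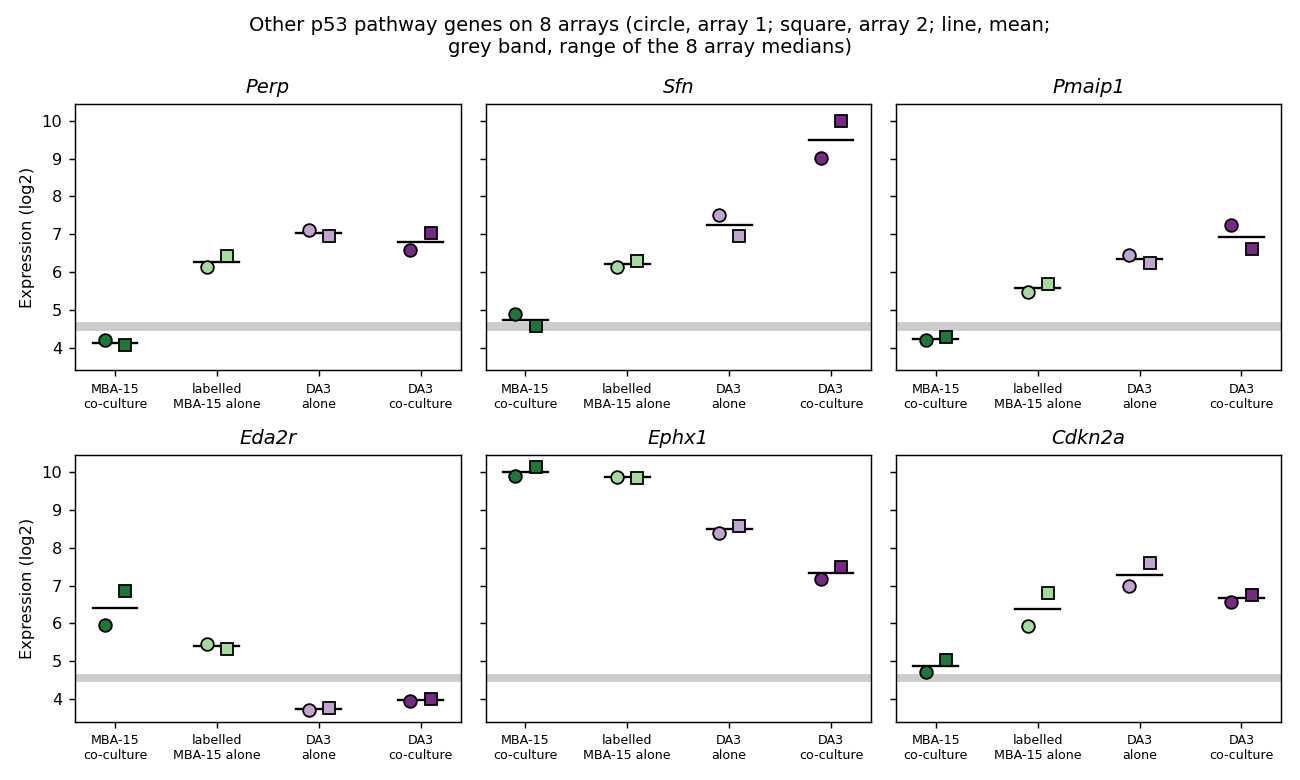
Log2 expression (vertical axis) of 6 further genes of the p53 pathway in the 4 groups (horizontal axis), drawn as in the plot of the 6 targets. Perp, Sfn, Pmaip1 and Cdkn2a lie lowest in MBA-15 co-culture, and Eda2r and Ephx1 lie lowest in DA3.

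In DA3 co-culture against DA3 alone 0 of these 30 further targets passed, where 0.0401% of all genes did. Of the 30, 10 had a higher and 20 a lower value, with a median of -0.21. The median was 0.04 over all genes and also -0.21 over the 10822 genes that are not dim (mean above the lowest array median), of which 70.2% had a lower value. Sfn was at 9.01 and 9.99 in DA3 co-culture against 7.51 and 6.95 in DA3 alone, a difference of 2.27 ± 0.34 log2 units that did not pass (limma, adjusted p = 0.111). Ephx1 was at -1.16 ± 0.16 (limma, adjusted p = 0.0906), and the death receptor gene Fas at -1.71 ± 0.43 (limma, adjusted p = 0.205). The Fas arrays do not overlap, with 4.06 and 3.99 in co-culture and 5.43 and 6.04 alone, and the co-culture levels lie below the lowest array median, so this difference is at best a lower bound. Between the co-culture fractions 10 of the 30 were higher in MBA-15 and 3 lower, beside 8.28% and 4.48% of all genes, and 9 of these 13 calls held with any 1 array left out. Fas lost its call without MBA-15 co-culture array 2 (1.45) or DA3 co-culture array 1 or 2 (2.07 and 2.00), and Plk2 without array 1 of either fraction (1.17 and 1.27). Ppm1d lost it without MBA-15 co-culture array 2 (1.10), and Sesn1 without MBA-15 co-culture array 1 (0.95) or DA3 co-culture array 2 (1.03). Sfn had the largest difference, -4.77 ± 0.34 (limma, adjusted p = 0.000728). Against the arrays labelled MBA-15 alone, Perp alone of the 30 passed, beside 0.848% of all genes. It was lower at -2.14 ± 0.19 (limma, adjusted p = 0.00832), and it lost its call without array 2 of either group (-2.06 without that of the co-culture and -1.99 without that of the control). Perp is a gene of epithelial cells, and Epcam differed by -3.46 in that comparison.

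**Figure D4:**
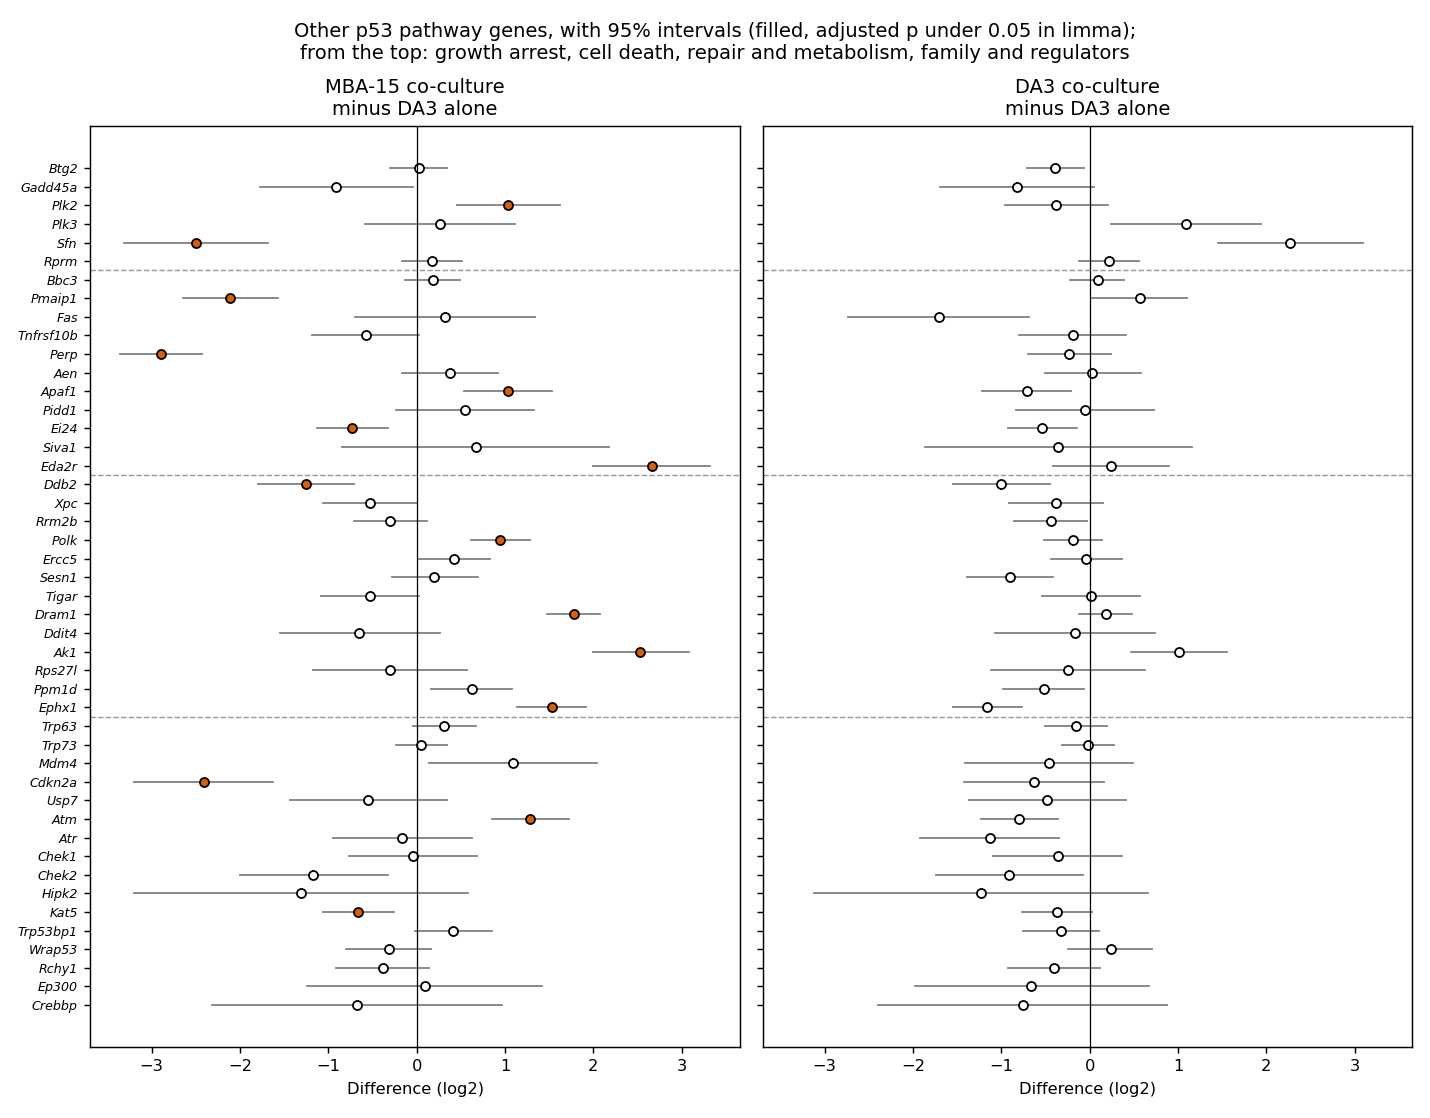
Differences in log2 expression (horizontal axes) of the 30 further p53 targets and 16 regulators (rows), for MBA-15 co-culture minus DA3 alone (left) and DA3 co-culture minus DA3 alone (right), with 95% intervals from limma; filled points have an adjusted p under 0.05. Filled points lie on both sides of 0 on the left, from Perp at -2.90 to Eda2r at 2.66, and there are none on the right.

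Of 16 p53 relatives and regulators, 1 was higher and 2 were lower in MBA-15 co-culture than in DA3 alone, beside 6.08% and 6.47% of all genes. The damage kinase gene Atm was higher by 1.28 ± 0.18 log2 units (limma, adjusted p = 0.00579) and lost its call without DA3 alone array 1 (1.25, limma, adjusted p = 0.0554). Cdkn2a, whose locus encodes the Mdm2 inhibitor Arf and the kinase inhibitor p16, was lower at -2.41 ± 0.33 (limma, adjusted p = 0.00507). Its arrays were at 4.72 and 5.03 in MBA-15 co-culture, 5.93 and 6.81 for the group labelled MBA-15 alone, 6.57 and 6.75 in DA3 co-culture and 6.98 and 7.59 in DA3 alone. Its labelled MBA-15 controls overlap with DA3 co-culture, and MBA-15 co-culture is the lowest. The acetyltransferase gene Kat5 was lower at -0.66 ± 0.17 (limma, adjusted p = 0.0485) and passed only without MBA-15 co-culture array 2 among the 8 omissions of 1 array. Mdm4, the partner of Mdm2, was at 1.09 ± 0.40 and did not pass (limma, adjusted p = 0.148). In DA3 co-culture 15 of the 16 had a lower value than in DA3 alone, with a median of -0.47. Of the 16, 0 passed, where 0.0401% of all genes did. Of the genes that are not dim 70.2% had a lower value there, with a median of -0.21.

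Of the kinases and cyclins that the p21 protein binds, Ccnd2, a D-type cyclin, was the 1 of 11 that passed in MBA-15 co-culture minus DA3 alone (-1.79 ± 0.29, limma, adjusted p = 0.0102), where 6.47% of all genes passed as lower, and it lost its call without DA3 alone array 1 (-1.73) or 2 (-1.85). Of 10 cell cycle genes that p53 lowers through p21, the mitotic kinase gene Aurka (-1.69) and E2f1 (-1.51) were lower in MBA-15 co-culture and 0 were higher, beside the same 6.47% and 6.08%. E2f1 kept its call only without MBA-15 co-culture array 1 among the 8 omissions of 1 array. In DA3 co-culture 0 of these 21 genes passed, where 0.0401% of all genes did. All 21 had a lower value than in DA3 alone. The medians of both lists were -0.26 and -0.46, beside -0.21 and 70.2% lower values over the genes that are not dim. Of 12 ATF4 targets, which share a regulator with Sesn2, Ddit3 (1.49) and Aldh1l2 (3.0) were higher in MBA-15 co-culture than in DA3 alone, while Atf3 (-0.79) and Mthfd2 (-0.76) were lower. Of all genes 6.08% passed as higher and 6.47% as lower there. Atf3 and Mthfd2 lost their calls without any 1 of the 4 arrays compared (-0.82 to -0.76 and -0.84 to -0.68), and Aldh1l2 in DA3 alone and Atf3 in MBA-15 co-culture were below the lowest array median, so their differences are at best lower bounds. In DA3 co-culture 0 of the 12 passed, beside the same 0.0401% of all genes, with a median of 0.12.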

How the data were processed

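The authors made the deposited log2 levels per probe set with RMA and Partek 6.5, per the submitters' processing notes; the parameters are not given in the sources used here. The log2 scale was read from the range of the values, and all 8 columns were used. RMA scales the arrays to each other, so a level is relative. Of 35556 probe sets, 21789 had 1 symbol in the platform annotation, and 21698 of these were found in RefSeq (GRCm38.p6) by Entrez identifier. The probe set with the highest mean was kept for each of 19938 genes. Array medians ran from 4.479 to 4.642. The number of arrays limits the precision.

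Group means were fitted to all 8 arrays and compared with limma 3.58.1 in R 4.3.3 (lmFit, eBayes, 4 residual and 2.6 prior degrees of freedom), two-sided, with Benjamini-Hochberg adjustment over all 19938 genes and a threshold of 0.05. The fit was tested on simulated data. Named genes are the members, Epcam, in each other list the genes that passed in any comparison and otherwise up to 3 with the largest change in MBA-15 co-culture minus DA3 alone and up to 3 in DA3 co-culture minus DA3 alone, and, for the 2 members with the widest range of group means, the 3 genes with the highest Pearson r. Alpl was named after its values were seen. Members and lists were chosen with earlier results of these data known. Other settings are a replicate or assay block, each array left out, other scalings, a filter on dim genes, the mean of probe sets, a trended prior and a fit to the compared groups. Leaving out both arrays labelled MBA-15 alone was chosen after seeing the data. A lone array left in a group is assumed to vary like the other groups.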

Additional observations from a re-analysis of the deposited data

How the results depend on the processing

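Same-numbered arrays share an assay number in all groups but DA3 co-culture. Between the groups that share it, deviations of same-numbered arrays correlated at 0.01, 0.213 and 0.135. In pairs with DA3 co-culture the correlations ran from -0.413 to 0.311, for arrays of unlike assay numbers. These values do not settle whether the arrays are paired. With the replicate number as a block, Phlda3 lost its call against DA3 alone (1.41, limma, adjusted p = 0.0578) and Sesn2 gained one (1.67, 0.0107), so the count stayed at 3, and Sesn2 gained one between the fractions (1.12). With the assay number as a block 5 members were called against DA3 alone. That block leaves DA3 co-culture to its array 1. Zmat3 then turned to 0.35 in DA3 co-culture, and the differences of the co-culture changes turned to -0.24 for Phlda3 and 0.06 for Zmat3. One member, Trp53inp1, was called in DA3 co-culture with dim genes left out and 1 with the trended prior. Quantile normalization gave 0.02 for Zmat3 in DA3 co-culture and 0.02 for Trp53inp1 in MBA-15 co-culture against the labelled arrays. Subtracting array medians gave 0.07 for the latter and -0.04 for Mdm2 in DA3 co-culture, and it moved the median of all genes by 0.106 in the MBA-15 comparison and by -0.149 in the difference of changes. Leaving out 1 array gave 1 to 4 called members against DA3 alone and 2 to 4 between the fractions. In DA3 co-culture the ranges were -0.20 to 0.20 for Mdm2, -0.10 to 0.90 for Phlda3 and -0.84 to 0.19 for Zmat3. Against the labelled arrays they were -0.17 to 0.09 for Trp53inp1, -0.12 to 0.71 for Zmat3 and -0.37 to 0.62 for Sesn2, and for the difference of changes -0.34 to 0.66 for Phlda3 and -0.08 to 0.93 for Sesn2. None of these reversed values was called. Of 492 member values under other settings 444 kept direction and side, and the cause of the other moves was not tested. All 6 members kept all MBA-15 arrays above all DA3 arrays under each scaling tried. Omitting arrays cannot undo that order. The number of genes called in DA3 co-culture moved from 8 to between 0 and 120. Against DA3 alone Sesn2 was also called with array medians subtracted (adjusted p in limma 0.0474), dim genes left out (0.0193), the trended prior (0.00994) and only the compared groups (0.0497). Genes called in MBA-15 co-culture against its labelled control moved from 169 to between 13 and 326.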

Other observations

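The annotation gives 1 probe set (10443463) to 2 symbols, and Cdkn1a, which encodes the cell cycle inhibitor p21, is among them. The values of this probe set cannot be assigned to either gene and enter no test. Its log2 levels were 8.12 and 7.26 in MBA-15 co-culture, 7.87 and 7.38 for the group labelled MBA-15 alone, 7.25 and 7.28 in DA3 co-culture and 5.46 and 5.74 in DA3 alone. Both DA3 co-culture arrays lie above both DA3 alone arrays, a difference that was not tested, and the MBA-15 groups overlap. In the opposite direction, 22.4% of all genes lay lower in DA3 co-culture without overlap. The share that lay higher in this way is not given here.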
